A study of Mus musculus with 8 samples.

Results

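The poly(C)-binding protein (PCBP) genes Pcbp1, Pcbp2, Pcbp3 and Pcbp4, the ferritin receptor gene Ncoa4 and the metal importer genes Slc39a14 and Slc39a8 are described here in mouse brown adipose tissue, the heat-producing fat. Members were taken by gene symbol, and each of the 7 symbols had 1 row among the 24535 genes of the table. The set was drawn up around Pcbp4 because of its difference between knockout and wild-type tissue. Values of the 7 genes in that contrast are therefore given as a description without p-values, and counts of members past a threshold only restate the values that chose the set. Poly(A)-selected RNA was sequenced from 4 wild-type libraries (WT 55, 62, 64 and 65) and 4 libraries labelled PATKO, an adipose tissue knockout of PGRMC2 (PATKO 53, 57, 70 and 71). All mice were of strain 129Sv/C57BL6j, 18 weeks old, kept at 30 °C and given chow at will. The labels name neither the promoter that drives the knockout nor whether each number is a separate animal, so any p-value measures only the spread between these libraries.

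PCBPs are RNA-binding proteins that hold single-stranded, cytosine-rich RNA through KH (K homology) domains and act in splicing, translation and mRNA stability. In human cells PCBP1 and PCBP2 also carry ferrous iron in the cytosol and hand it to ferritin, the iron store, and to iron-dependent hydroxylases. NCOA4 binds ferritin and takes it to the lysosome, where the stored iron is released again. ZIP14 and ZIP8, the products of Slc39a14 and Slc39a8, bring iron, zinc and manganese into the cytosol. In brown fat, iron is needed for heme and for the iron-sulfur clusters of the respiratory chain.

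The 4 PCBP genes are alike around their first KH loop, and single bases differ both inside the loop and beside it. The loop itself encodes glycine-lysine-lysine-glycine in all 4. The stretch of coding sequence around the first glycine-any-any-glycine loop, the part of a KH domain that contacts RNA, is shown for each paralog (GENCODE M21, coding strand), with the codons of the loop in capitals.
Pcbp1: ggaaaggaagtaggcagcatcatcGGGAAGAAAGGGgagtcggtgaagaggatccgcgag
Pcbp2: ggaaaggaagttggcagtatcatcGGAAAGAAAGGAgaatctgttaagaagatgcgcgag
Pcbp3: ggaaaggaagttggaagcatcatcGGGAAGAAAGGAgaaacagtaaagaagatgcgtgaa
Pcbp4: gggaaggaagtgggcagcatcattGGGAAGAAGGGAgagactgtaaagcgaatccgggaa
The coding sequence of Pcbp4 has 1212 bases. Pcbp4 was 67.3% identical to Pcbp1 over 1029 aligned bases, 69.4% to Pcbp2 over 943 and 72.8% to Pcbp3 over 951, whereas Pcbp1 and Pcbp2 were 82.4% identical over 1056. The longest run of bases that Pcbp4 shared with another PCBP coding sequence was 19, with Pcbp3. Pcbp1 and Pcbp2 shared a run of 33 bases.

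Ncoa4 has a near-identical copy elsewhere in the genome. Its coding sequence of 1878 bases aligned over its whole length, without gaps, to the processed pseudogene Gm6768 on chromosome 12, and 2 bases differed. The substitutions, counted from 1 at the first base of the Ncoa4 coding sequence with the Ncoa4 base first, were A1312G and G1533A. The sequence around both positions is shown because reads from the rest of the coding sequence match both genes equally well; capitals mark the differing base.
Ncoa4, first position: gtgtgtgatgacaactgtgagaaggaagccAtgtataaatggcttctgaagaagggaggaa
Gm6768, first position: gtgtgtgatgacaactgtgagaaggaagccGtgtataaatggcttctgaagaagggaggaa
Ncoa4, second position: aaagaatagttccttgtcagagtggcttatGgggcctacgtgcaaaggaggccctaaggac
Gm6768, second position: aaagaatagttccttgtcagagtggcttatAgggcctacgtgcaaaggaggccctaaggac
The aligned coding sequence made up 46.2% of the longest Ncoa4 coding transcript. Gm6768 has no row in the table, and the treatment of reads that match in more than 1 place was not stated. The level of Ncoa4 below is uncertain for that reason.

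Facts of the whole table bear on all values. FPKM (fragments per kilobase of transcript, scaled to library size) summed to 287525 to 291153 in WT and 307371 to 315232 in PATKO, and the median gene lay 0.17 higher in PATKO on the log2 scale. Differences are therefore given both for deposited FPKM and after median-of-ratios scaling, which sets the median difference to -0.00. The table holds no counts, so the depth is unknown and no counting intervals could be computed. Pgrmc2 was 38.5 ± 2.87 FPKM in WT and 3.24 ± 0.301 in PATKO (SD, n = 4). Of 12 brown adipocyte markers none was at 0 in every library, and their summed level was 15036 to 16684 FPKM in WT and 15099 to 17427 in PATKO. As deposited, 2 of the 12 were separate with PATKO higher and 1 with PATKO lower. After scaling, the brown adipocyte sums were 15524 to 18521 in WT and 13071 to 16634 in PATKO, again with overlap. Of 20 skeletal muscle markers 16 were higher in every PATKO library than in any WT library (8 after scaling), with sums of 626 to 1476 FPKM in WT and 1682 to 6463 in PATKO, highest in PATKO 71. Mast cell markers (4 of 6 separate) summed to 10.3 to 14.0 FPKM in WT and 18.7 to 23.4 in PATKO. The sums of both lists were also separate after scaling. Schwann cell and nerve markers (9.85 to 14.2 against 15.2 to 20.7 FPKM; 2 of 8 separate) and fibroblast markers (238.0 to 267.0 against 269.0 to 511.6 FPKM; 1 of 8 separate) had separate sums as deposited, and these overlapped after scaling (10.2 to 15.6 against 14.7 to 17.9, and 246.6 to 288.9 against 256.3 to 442.9). Sums of macrophage, lymphocyte, endothelial and erythroid markers overlapped between groups either way. In bulk tissue, more cells of a type and more RNA per cell cannot be told apart.

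Levels were compared between genes on the FPKM scale, which is per length. In WT, Pcbp2 had the highest mean, 71.5 ± 7.04 FPKM (SD, n = 4), 2.04 times that of Pcbp1 at 35 ± 4.14 FPKM. Pcbp4 followed at 6.97 ± 0.902 FPKM, then Slc39a14 at 3.88 ± 0.388 FPKM and Pcbp3 at 2.69 ± 0.440 FPKM. Slc39a8 at 1.45 ± 0.335 FPKM and Ncoa4 at 1.43 ± 0.0668 FPKM came last, and their ranges overlapped. The ranges of every other pair of neighbours in this order were separate. The order of means was the same in PATKO, where the ranges of all neighbours were separate. The PCBPs best known as iron carriers thus stood far above the other 5 genes in level, though the level and place of Ncoa4 are uncertain because of its copy Gm6768. Pcbp4 came next. The level of Pcbp2, and any ratio or share that includes it, is uncertain too. Pcbp2 shares 1576 bases with Map3k12 on the opposite strand, and whether the counting used strand was not stated.

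**Figure D1:**
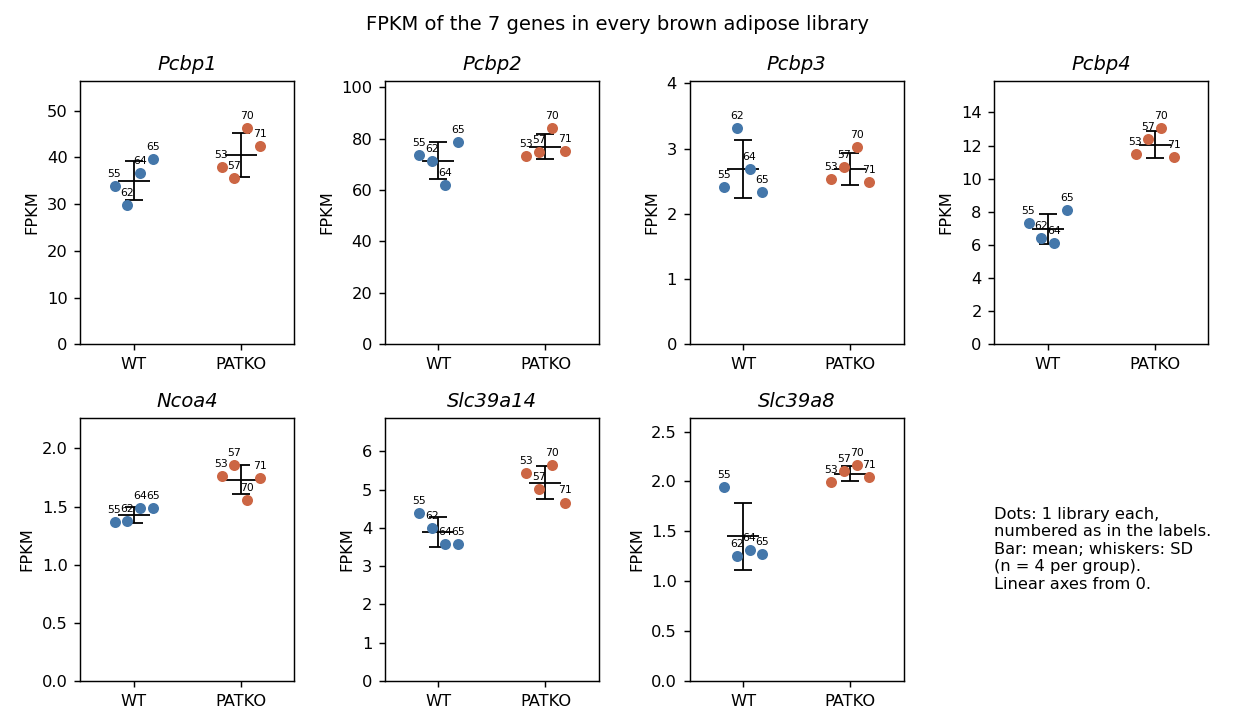
FPKM of the 7 genes in each library (vertical axes in FPKM, linear from 0), with WT libraries in blue and PATKO libraries in orange, the mean as a bar and the SD as whiskers (n = 4). Pcbp4 runs from 6.10 to 8.08 FPKM in WT and from 11.3 to 13.0 in PATKO, while Pcbp1, Pcbp2 and Pcbp3 overlap between the groups.

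Among the RNA-binding members, Pcbp4 differed most between the groups. Its product is induced by p53 in human cells, where it restrains the cell cycle. The gene lies on the plus strand of chromosome 9 (chr9:106453291-106464012, GRCm38, the assembly that mm10 names). It was 7.31, 6.40, 6.10 and 8.08 FPKM across WT 55, 62, 64 and 65, against 11.5, 12.4, 13.0 and 11.3 FPKM in PATKO 53, 57, 70 and 71. Every PATKO library was above every WT library. The PATKO mean of 12.1 ± 0.802 FPKM was 1.73 times the WT mean of 6.97 ± 0.902 (SD, n = 4). The log2 difference was 0.75 (SE 0.10) with FPKM as deposited and 0.57 (SE 0.07) after median-of-ratios scaling, where the groups remained separate. After scaling, WT libraries held 6.77 to 8.38 and PATKO libraries 10.8 to 11.8 units. Without PATKO 71, the library with the highest skeletal muscle marker sum, the log2 difference was 0.78 as deposited and 0.58 after scaling. The muscle marker sums of PATKO 53, 57 and 70 (1682 to 2530 FPKM) were also above every WT library (at most 1476). Leaving out PATKO 71 therefore does not separate muscle RNA from the knockout, and the part of muscle RNA in the difference was not tested. The last 51 bases of Pcbp4 overlap Gpr62 on the opposite strand.

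Pcbp1, on chromosome 6 (chr6:86524492-86526321, minus strand) with a single exon, encodes a principal iron carrier of the cytosol. It was 33.98, 29.8, 36.6 and 39.6 FPKM across WT 55, 62, 64 and 65, against 38.0, 35.7, 46.2 and 42.5 FPKM in PATKO 53, 57, 70 and 71. The groups overlapped, with PATKO 53 and 57 below WT 65. The log2 difference was 0.21 (SE 0.11) with FPKM as deposited and 0.02 (SE 0.09) after median-of-ratios scaling.

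Pcbp2, on chromosome 15 (chr15:102470539-102500061, plus strand), encodes the carrier that in human cells also binds iron transporters. It was 73.8, 71.5, 62.0 and 78.8 FPKM across WT 55, 62, 64 and 65, against 73.2, 75.0, 84.0 and 75.3 FPKM in PATKO 53, 57, 70 and 71. WT 65 lay above every PATKO library but PATKO 70, so the groups overlapped. The log2 difference changed sign with the scaling, from 0.11 (SE 0.08) as deposited to -0.09 (SE 0.07) after median-of-ratios scaling. The end of Pcbp2 runs into Map3k12 on the opposite strand, and 1576 bases of its longest coding transcript (48.9%) are shared with it. The libraries were made with a stranded kit, but whether the counting used strand was not stated.

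Pcbp3, on chromosome 10 (chr10:76761857-76961887, minus strand), is the least abundant paralog in this tissue. It was 2.41, 3.31, 2.69 and 2.34 FPKM across WT 55, 62, 64 and 65, against 2.54, 2.71, 3.02 and 2.49 FPKM in PATKO 53, 57, 70 and 71. WT 62 was the highest of the 8 libraries and WT 65 the lowest, so the PATKO values lay inside the WT range. The log2 difference was 0.01 (SE 0.11) with FPKM as deposited and -0.16 (SE 0.12) after median-of-ratios scaling, which changed its sign.

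A share within a library does not depend on how libraries are scaled against each other. Pcbp4 made up 6.22%, 5.77%, 5.68% and 6.28% of the summed PCBP FPKM across WT 55, 62, 64 and 65, against 9.17%, 9.86%, 8.91% and 8.60% in PATKO 53, 57, 70 and 71. The shares were separate, with means of 5.99% ± 0.307 and 9.13% ± 0.536 (SD, n = 4). Pcbp2 held 57.7% to 64.4% in WT and 57.2% to 59.6% in PATKO, and Pcbp1 held 26.9% to 34.1% and 28.4% to 32.3%. Both overlapped between groups, as did Pcbp3 at 1.82% to 2.98% and 1.89% to 2.16%. Set against Pcbp1 alone, Pcbp4 stood at 0.167 to 0.215 in WT and at 0.266 to 0.348 in PATKO. The summed PCBP level overlapped between the groups (107.4 to 128.8 FPKM in WT and 125.2 to 146.2 FPKM in PATKO). A ratio within a library shows unequal change between paralogs and does not show that any of them was constant. Because the contrast chose Pcbp4, its separate share and ratio restate that choice and are given as a description.

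**Figure D2:**
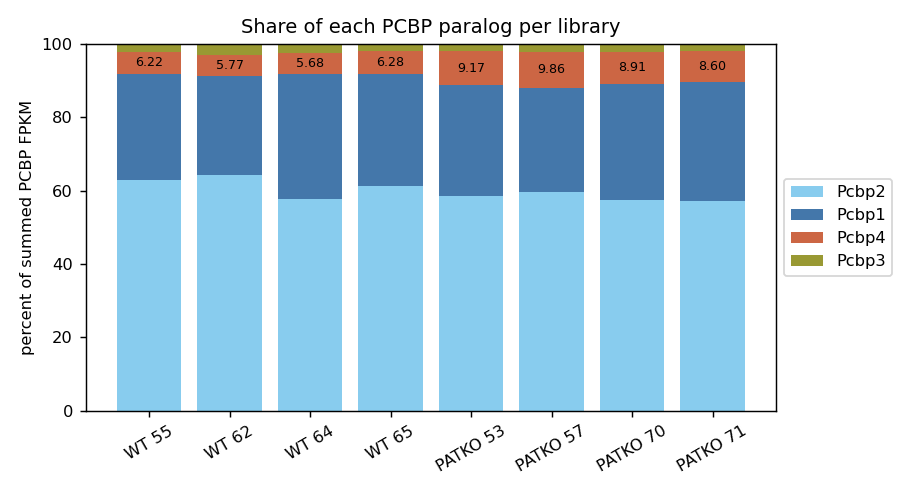
Share of each PCBP paralog in the summed PCBP FPKM (vertical axis, percent) in each of the 8 libraries (horizontal axis). The Pcbp4 segment, with its share printed on it, is 5.68% to 6.28% in WT and 8.60% to 9.86% in PATKO.

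Ncoa4 encodes the receptor that delivers ferritin to autophagosomes. The gene lies on chromosome 14 (chr14:32159865-32179855, plus strand). It was 1.37, 1.38, 1.49 and 1.49 FPKM across WT 55, 62, 64 and 65, against 1.76, 1.86, 1.56 and 1.75 FPKM in PATKO 53, 57, 70 and 71. All PATKO values were above all WT values as deposited, by little in PATKO 70. The log2 difference was 0.21 (SE 0.10) with FPKM as deposited and 0.06 (SE 0.10) after median-of-ratios scaling, where the groups overlapped.

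Of the metal importers, Slc39a14 (chr14:70303469-70351425, minus strand) encodes ZIP14, which takes up iron that is not bound to transferrin. It was 4.38, 3.99, 3.56 and 3.59 FPKM across WT 55, 62, 64 and 65, against 5.43, 5.004, 5.64 and 4.66 FPKM in PATKO 53, 57, 70 and 71. The groups were separate as deposited, with WT 55 and PATKO 71 the closest. The log2 difference was 0.38 (SE 0.09) for deposited FPKM. With median-of-ratios scaling it was 0.20 (SE 0.08), and the groups met, with 3.72 to 4.53 units in WT and 4.51 to 5.13 in PATKO.

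Slc39a8 (chr3:135825279-135888572, plus strand) encodes ZIP8, the closest relative of ZIP14. It was 1.95, 1.25, 1.31 and 1.28 FPKM across WT 55, 62, 64 and 65, against 1.998, 2.11, 2.16 and 2.04 FPKM in PATKO 53, 57, 70 and 71. WT 55 stood far above the other WT libraries, close to the PATKO values. The log2 difference was 0.42 (SE 0.13) with FPKM as deposited and 0.53 without WT 55. After median-of-ratios scaling it was 0.27 (SE 0.12), and the groups overlapped.

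The members' counts stand beside those of all 12235 tested genes, whose mean reached 0.5 FPKM or more, which all 7 members reached. With limma (Benjamini-Hochberg adjusted p under 0.05 over all tested genes) 2 of the 7 members, Pcbp4 and Slc39a14, were past the threshold with FPKM as deposited, where 13.5% of all genes were. With median-of-ratios scaling 1 member, Pcbp4, was past it, where 0.123% of all genes were and 0.0409% were lower in PATKO. As deposited, 4 of 7 members (Pcbp4, Ncoa4, Slc39a14 and Slc39a8) were separate with PATKO higher, as were 24% of all genes, and 0 of 7 were separate with PATKO lower, as were 0.597% of all genes. After scaling these counts were 1 of 7 and 0 of 7, beside 5.57% and 4.36% of all genes. The median log2 difference of the members was 0.21 as deposited and 0.06 after scaling, against 0.17 and -0.00 over all genes. The contrast chose the set, so nothing is read from these counts. Slc39a14 was no longer past the threshold without WT 62, 64 or 65 or without PATKO 53, 57 or 70, and Slc39a8 came past it without WT 55. In the fits that lost Slc39a14, 24 to 1019 of all genes passed, and 1463 passed without WT 55, beside 1646 with every library. Nothing is read from these calls of members either. With scaling and a library left out together, Pcbp4 was past the threshold without WT 55 or WT 65 and not without WT 62, WT 64 or any of the 4 PATKO libraries, its log2 difference running from 0.53 to 0.62. Of all genes, 57 passed without WT 55, 5 without WT 65 and 3 to 8 in the fits where Pcbp4 did not.

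**Figure D3:**
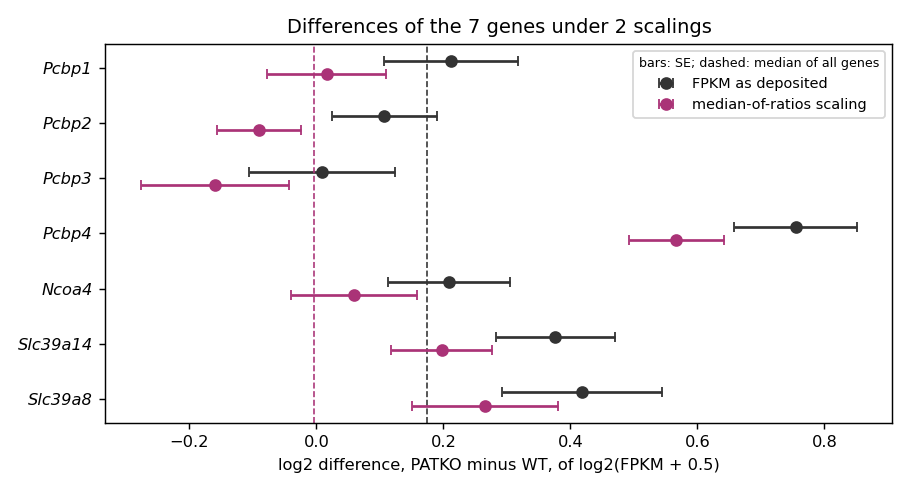
Log2 difference, PATKO minus WT, of log2(FPKM + 0.5) for the 7 genes (horizontal axis) with FPKM as deposited (black) and after median-of-ratios scaling (purple); bars are SE and dashed lines the median of all tested genes. Pcbp4, at 0.75 and 0.57, lies farthest from both lines.

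The genes around Pcbp4 on chromosome 9 were read by annotated position. Abhd14b, a gene of the alpha/beta hydrolase family, ends 367 bases before the start of Pcbp4 on the same strand. It was 22.9, 19.4, 26.2 and 23.2 FPKM across WT 55, 62, 64 and 65, against 29.2, 39.6, 47.3 and 28.1 FPKM in PATKO 53, 57, 70 and 71. The groups were separate as deposited, and Abhd14b rose by 0.62 (SE 0.16, limma adjusted p = 0.040) in log2 units. With median-of-ratios scaling the groups overlapped (0.42, SE 0.15, limma adjusted p = 0.206).

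Tex264, which encodes a receptor for the autophagy of the endoplasmic reticulum, lies 194733 bases beyond the end of Pcbp4 on the minus strand (chr9:106658746-106685927). It was 44.0, 38.7, 39.9 and 44.0 FPKM across WT 55, 62, 64 and 65, against 61.8, 65.5, 66.4 and 58.7 FPKM in PATKO 53, 57, 70 and 71. Every PATKO library was above every WT library, with and without scaling. Tex264 rose by 0.59 (SE 0.07, limma adjusted p = 0.0092) as deposited and by 0.40 (SE 0.06, limma adjusted p = 0.042) after scaling. Between Pcbp4 and Tex264 lie Parp3, a poly-ADP-ribose polymerase gene, and Rrp9, a ribosomal RNA processing gene, among the tested genes. Rad54l2, a helicase gene beyond Tex264, was 4.6 ± 0.368 FPKM in WT and 5.38 ± 0.368 in PATKO, with overlap. Parp3 was 17.9 ± 1.996 FPKM in WT and 20.1 ± 3.61 in PATKO, and Rrp9 was 6.80 ± 0.842 and 7.51 ± 0.482 FPKM (SD, n = 4), with overlap in both.

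On the other side, Abhd14a was 7.17 ± 0.495 FPKM in WT and 9.38 ± 1.52 in PATKO, Acy1, an aminoacylase gene, 5.14 ± 0.749 and 6.24 ± 0.908 FPKM, and the ribosomal protein gene Rpl29 5.15 ± 1.504 and 5.42 ± 2.51 FPKM (SD, n = 4). None of these passed the threshold. The other tested genes within 250000 bases, named after their values were seen, were Twf2, Alas1, Poc1a and Dusp7, and none of the 4 passed it either. Twf2, a twinfilin gene, was 8.25 ± 0.910 FPKM in WT and 12.7 ± 3.75 in PATKO, separate as deposited (log2 difference 0.56, limma adjusted p = 0.055) and overlapping after scaling. Poc1a, a centriole gene, was 2.75 ± 0.408 and 2.48 ± 0.542 FPKM, overlapping as deposited and lower in every PATKO library after scaling (-0.30, limma adjusted p = 0.263). Alas1, the first enzyme of heme synthesis, was 149.1 ± 13.6 and 150.6 ± 26.8 FPKM, and the phosphatase gene Dusp7 was 5.01 ± 0.528 and 5.46 ± 1.02 FPKM (SD, n = 4), both with overlap. Of the 12 tested genes within 250000 bases of Pcbp4, 2 passed as deposited (13.5% of all genes did) and 1, Tex264, passed after scaling (0.123% of all genes did). Their median log2 difference was 0.18 as deposited and -0.00 after scaling, near that of all genes.

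**Figure D4:**
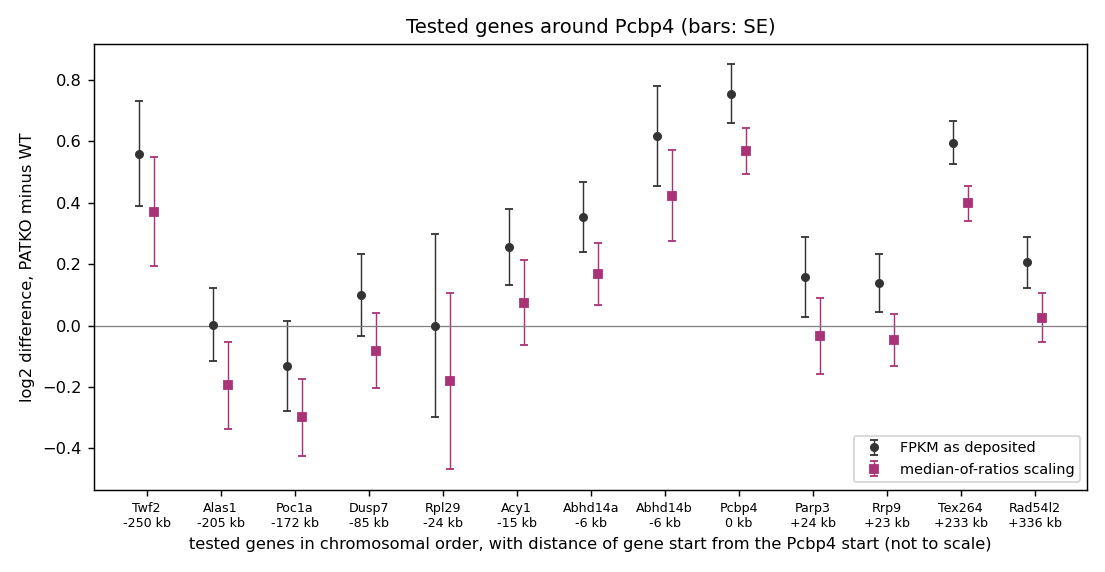
Log2 difference, PATKO minus WT (vertical axis), of the tested genes around Pcbp4 in chromosomal order, with the distance of each gene start from the Pcbp4 start in kb under its name; circles are FPKM as deposited, squares median-of-ratios scaling, bars SE. Pcbp4 and Tex264 stand at 0.57 and 0.40 after scaling, and Parp3 and Rrp9 between them at -0.03 and -0.05.

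The genes whose values followed Pcbp4 most closely were found by the root-mean-square difference of log2(FPKM + 0.5) over the 8 libraries, each gene centred on its own mean. Of 10624 genes compared, Tex264 was the closest (0.10 on the log2 scale). Slc5a6, a transporter of biotin and pantothenate, came next (0.10), before the translation helicase gene Eif4a2 (0.12), the growth factor gene Tgfb3 (0.12) and the tetraspanin gene Cd63 (0.12). Slc5a6 was 7.94, 6.49, 7.25 and 8.35 FPKM across WT 55, 62, 64 and 65, against 10.7, 11.5, 13.1 and 12.4 FPKM in PATKO 53, 57, 70 and 71. The groups were separate, with and without scaling. The other members were much less like Pcbp4, Slc39a8 at rank 640, Slc39a14 at rank 744 and Pcbp1 at rank 3760. The measure includes the difference between groups, so genes that differ by as much as Pcbp4 rank high, and no test is given. After median-of-ratios scaling, 3 of the 5 genes were still among the closest 5, with Tex264 at rank 2 and Slc5a6 at rank 1.

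Genes of related pathways were counted from lists, which were chosen with earlier results of these data known. As deposited, 13.2% of all tested genes rose and 0.27% fell (limma adjusted p under 0.05). Of 22 tested iron uptake, storage and release genes 7 rose, 0 fell and 15 did not pass (limma adjusted p under 0.05, FPKM as deposited). Their median log2 difference was 0.18, against 0.17 for the whole table. With median-of-ratios scaling 1 gene was past the threshold, Fbxl5, and 13 of the 22 lay below 0. With an unadjusted limma p under 0.05, 6 of the 22 were then higher and 2 lower, beside 1113 and 1004 of all 12235 genes. The ferritin heavy chain gene Fth1, whose product receives iron from PCBPs, was 1681, 1888, 1612 and 1929 FPKM across WT 55, 62, 64 and 65, against 1710, 1550, 1715 and 1641 FPKM in PATKO 53, 57, 70 and 71. The groups overlapped as deposited (log2 difference -0.10, limma adjusted p = 0.378), and after scaling Fth1 was lower in every PATKO library (-0.30, limma adjusted p = 0.194). The ferritin light chain gene Ftl1 was 177.0 ± 22.6 FPKM in WT and 193.8 ± 22.8 in PATKO, and the iron exporter gene Slc40a1 was 9.78 ± 2.16 and 11.0 ± 1.08 FPKM (SD, n = 4). The transferrin receptor gene Tfrc varied widely within both groups, from 12.3 to 69.4 FPKM in WT and from 22.5 to 78.9 in PATKO.

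Fbxl5, the iron-sensing ligase subunit that removes iron regulatory protein, was 13.3, 10.9, 13.5 and 12.5 FPKM across WT 55, 62, 64 and 65, against 22.7, 22.5, 23.7 and 21.9 FPKM in PATKO 53, 57, 70 and 71. The groups were far apart, as for Pcbp4, and it rose by 0.84 (limma adjusted p = 0.0027) as deposited and 0.64 (limma adjusted p = 0.023) after scaling. Steap3, an endosomal iron reductase gene, rose from 5.34 ± 0.720 to 7.94 ± 0.861 FPKM, the ferroxidase gene Heph from 2.64 ± 0.687 to 4.88 ± 1.02 FPKM and Aco1, which encodes an iron regulatory protein, from 46.9 ± 3.23 to 58.7 ± 2.91 FPKM (SD, n = 4). After scaling, Steap3, Heph and Aco1 did not pass (limma adjusted p = 0.154, 0.167 and 0.359). Steap3 remained separate between groups, as did 5.57% of all genes with PATKO higher, whereas Heph and Aco1 overlapped.

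Of 12 tested genes for proteins that take iron from PCBPs or bind them, 3 rose, 0 fell and 9 did not pass, with a median log2 difference of 0.21 as deposited and 0.02 after scaling. As deposited, 13.2% of all genes rose and 0.27% fell. Hif1an, an asparaginyl hydroxylase of hypoxia-inducible factor, rose from 7.95 ± 0.646 to 10.3 ± 0.564 FPKM, the prolyl hydroxylase gene Egln2 from 19.2 ± 1.02 to 22.9 ± 0.911 FPKM and Glrx3, a cytosolic glutaredoxin gene, from 23.0 ± 1.58 to 27.3 ± 1.18 FPKM (SD, n = 4). Of 14 genes of NCOA4 turnover and ferritin autophagy 3 rose, Gabarap, Nbr1 and the kinase gene Ulk1, 0 fell and 11 did not pass. Gabarap, an ATG8 family gene, went from 220.1 ± 10.7 to 262.3 ± 5.03 FPKM (SD, n = 4). Their median was 0.19 as deposited and 0.01 after scaling, where 0 of the 12 and 0 of the 14 were past the threshold (with an unadjusted limma p under 0.05, 1 of the 12 and 2 of the 14 were lower and 0 were higher). At that unadjusted threshold 1004 of all 12235 genes were lower after scaling and 1113 higher.

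Of 8 tested ZIP importer genes other than Slc39a14 and Slc39a8, 3 rose, 0 fell and 5 did not pass. As deposited, 13.2% of all genes rose and 0.27% fell. Slc39a7, which releases zinc from the endoplasmic reticulum, rose from 26.8 ± 2.24 to 35.99 ± 1.48 FPKM, Slc39a13, a zinc transporter of intracellular vesicles, from 10.9 ± 0.652 to 15.2 ± 1.96 FPKM and Slc39a3 from 8.87 ± 0.490 to 11.1 ± 0.431 FPKM (SD, n = 4). Slc39a7 and Slc39a13 remained separate between groups after scaling (log2 differences of 0.22 and 0.27, limma adjusted p = 0.141 and 0.143), as Slc39a14 and Slc39a8 did not. Of all genes, 5.57% were separate with PATKO higher after scaling. Of 9 tested genes of zinc exporters, metallothioneins and their transcription factor Mtf1, 2 rose, Slc30a6 and Slc30a5, which form a zinc transporter of the Golgi, 0 fell and 7 did not pass. Slc30a5 went from 9.98 ± 0.674 to 12.4 ± 0.580 FPKM and Slc30a6 from 2.84 ± 0.195 to 3.96 ± 0.350 FPKM. Both also remained separate after scaling (log2 differences of 0.12 and 0.24, limma adjusted p = 0.317 and 0.164). The metallothionein gene Mt1 was 183.0 ± 48.4 FPKM in WT and 265.8 ± 28.5 in PATKO (SD, n = 4; limma adjusted p = 0.053). Its groups overlapped with and without scaling (limma adjusted p = 0.297 after scaling). The medians of the importer and exporter lists were 0.26 and 0.20 as deposited and 0.09 and 0.02 after scaling, where 0 genes of either were past the threshold in limma (with an unadjusted p under 0.05, 2 importers and 1 gene of the exporter list were higher, and 0 and 1 were lower). Of all 12235 genes 1113 were then higher and 1004 lower.

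As deposited, 13.2% of all genes rose and 0.27% fell. Among 25 tested genes of other KH-domain proteins 3 rose, Fxr1, Fxr2 and Hdlbp, 0 fell and 22 did not pass. Their median was 0.15 as deposited and -0.04 after scaling. Hnrnpk, a relative of the PCBPs that also binds cytosine-rich RNA, was 37.2 ± 1.499 FPKM in WT and 36.1 ± 1.59 in PATKO (SD, n = 4; limma adjusted p = 0.623), and it was lower in every PATKO library after scaling (-0.24, limma adjusted p = 0.143). Of 17 tested p53 target genes, a list that leaves out Pcbp4, 3 rose, Mdm2, Bbc3 and Sesn1, 0 fell and 14 did not pass. Their median was 0.11 as deposited and -0.04 after scaling. The cell cycle inhibitor gene Cdkn1a was 11.6 ± 2.33 FPKM in WT and 12.3 ± 1.27 in PATKO (SD, n = 4; limma adjusted p = 0.627). After scaling 0 genes of either list were past the threshold in limma (with an unadjusted p under 0.05, 0 and 1 were higher, and 3 and 2 were lower). Of all 12235 genes 1113 were then higher and 1004 lower.

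Over the 7 lists, 24 of 100 tested genes rose and 0 fell as deposited, where 13.2% of all genes rose, and the medians of the lists and of all genes were 0.18 and 0.17. The lists were chosen with earlier results of these data known, so nothing is read from the count beside that share. The list count was 1 without WT 62, WT 64, PATKO 53 or PATKO 70, 8 without WT 65 and 10 without PATKO 71. The count over all genes, 1646 with every library, fell in the same fits. It was 145 without WT 62, 24 without WT 64, 24 without PATKO 53 and 124 without PATKO 70. It was 625 without WT 65 and 745 without PATKO 71. After median-of-ratios scaling the list count was 1, Fbxl5, where 0.0817% of all genes rose. It was 0 when WT 65, PATKO 53, PATKO 57 or PATKO 71 was also left out, where 3 to 6 of all genes passed. Summed skeletal muscle and mast cell markers were higher in every PATKO library with and without scaling, and those of Schwann cells and fibroblasts as deposited, and their part in these counts was not tested.

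**Figure D5:**
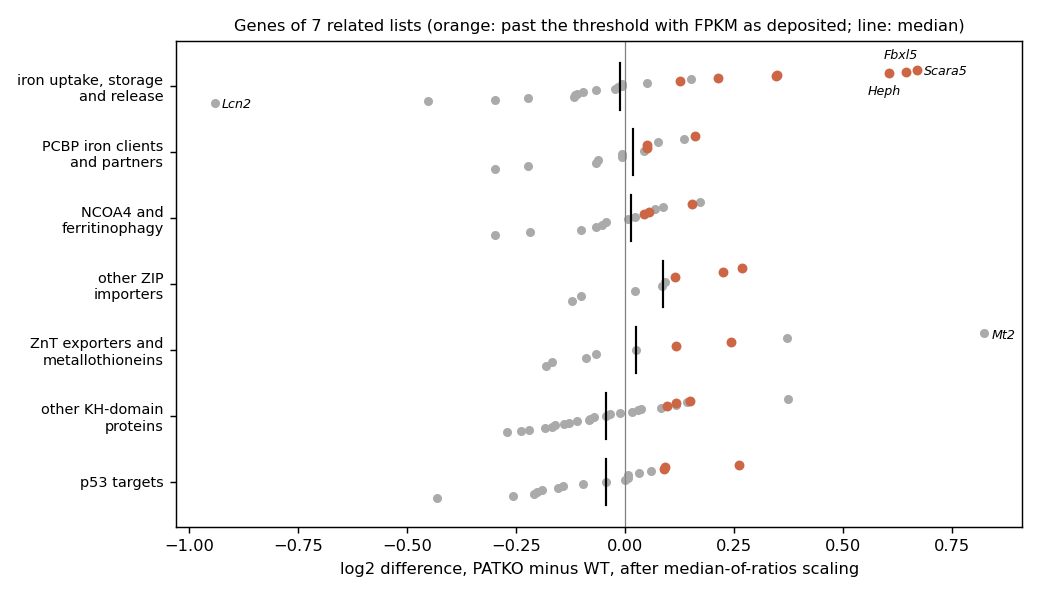
Log2 difference, PATKO minus WT, after median-of-ratios scaling (horizontal axis) for each tested gene of the 7 lists (rows); orange dots passed the threshold with FPKM as deposited, grey dots did not, and black lines are list medians. The medians lie between -0.04 and 0.09, and genes beyond 0.5 in either direction are named (Lcn2, Heph, Fbxl5, Scara5 and Mt2).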

How the data were processed

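The deposited table, per the file headers, gives FPKM for 24535 genes in 8 libraries, and 0 of its per-sample columns were unused. The genome build was mm10, per the submitters' processing notes. No source used here names the aligner, counter or annotation. Per the labels' protocols, libraries were made with a stranded mRNA kit from 0.5 µg of total RNA.

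FPKM are not counts, so the test was limma 3.58.1 under R 4.3.3 (eBayes with trend, two-sided) on log2(FPKM + 0.5) wherever the mean reached 0.5 FPKM, with Benjamini-Hochberg adjustment over all tested genes and a threshold of 0.05. The pseudocount makes differences of low genes look smaller than they are. The step was tested on simulated data with 200 changed genes and no shift between libraries. The deposited values do have such a shift, so that test does not bear on the choice of scaling. Alternatives were other pseudocounts, filters, scalings, limma settings and leaving out each library.

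The members and lists were chosen with earlier results of these data known. Besides the members, the text names the first 4 genes past the threshold in each list by adjusted p, 7 direct partners, the 4 nearest tested genes on each side of Pcbp4 with any other within 250000 bases past the threshold, and the 5 genes most like it. Positions and coding sequences came from GENCODE M21 (GRCm38). Copies were sought for the 7 members only, with blastn 2.17.0 (at least 95% identity over 100 bases), and identities were computed with Biopython 1.88. The levels of other genes were not checked for reads shared with copies. Figures used matplotlib 3.10.9 under Python 3.11.15.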

Additional observations from a re-analysis of the deposited data

Results flagged for a closer look

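In WT 55, Slc39a8 was 1.95 FPKM, far from the other 3 WT libraries. Its gap to the nearest of them was 0.914 of the range of the group, above Dixon's critical value for a group of 4. Of 14 gene and group combinations examined this was the only one so far out, and chance puts about 1 in 20 beyond the limit.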

How the results depend on the processing

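The count of all genes past the threshold was 1646. It was 713 with no filter on low values, 992 in limma without trend, 31 after TPM scaling, 18 after quantile normalization and 15 after median-of-ratios scaling. It was 24 to 1463 when 1 library was left out and 3 to 57 with that and median-of-ratios scaling together (57 without WT 55, 5 without WT 62, 64 or 65, 3 without PATKO 53 or 71, 6 without PATKO 57 and 8 without PATKO 70). The list genes past the threshold, 24 as reported, were 15 with no filter, 15 without trend and 1 under each of the 3 scalings. They were 1 to 21 with 1 library left out and 0 to 1 with scaling as well. The members with separate groups went from 4 to 1 under each scaling, Pcbp4 being that member. Without WT 55, overlapping neighbours in the WT level order went from 1 to 0 (range 0 to 1); after quantile normalization those in PATKO went from 0 to 1. Pcbp4 was higher in PATKO in 25 of 25 alternatives (log2 difference 0.53 to 0.82). Slc39a14, Slc39a8 and Ncoa4 were higher in 24 of 24. Pcbp1 was higher in 21 of 25, Pcbp2 in 15 of 25 and Pcbp3 in 10 of 24. Pcbp2 was below 0 after quantile normalization and in every fit with median-of-ratios scaling. Other filters and limma settings cannot change a log2 difference, and the contrast chose the members. Nothing is read from these tallies for that reason. The minimum mean of 5 FPKM leaves out Ncoa4, Pcbp3, Slc39a14 and Slc39a8. The comparison of likeness after scaling and the ratio of Pcbp4 to Pcbp1 were chosen after seeing the data. The cause of these differences was not tested. No paired analysis was possible because the groups share no library numbers.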
